A study of Mus musculus with 2 samples.

Results

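The conventional actins of the mouse are encoded by 6 genes, Acta1, Actc1, Acta2, Actg2, Actb and Actg1, which were picked by gene symbol out of the 55536 Ensembl genes quantified. They were followed in total RNA sequencing of the gastrocnemius, the large calf muscle, of 2 male mice. Both animals were of the strain B6CASTF1/J, an F1 cross of C57BL/6 with the wild-derived CAST strain, and were 36 days old, with no treatment named. Each animal gave 1 library from 300 ng of RNA, with 36952277 expected counts in replicate 1 and 38754338 in replicate 2. The labels give the libraries separate biosamples and mouse numbers but the same donor entry, and they were taken here as 2 animals. Both belong to 1 group, so the labels set no condition against another and no p-value can be had. Differences between them measure only the spread between these 2 samples, which can be partly technical. The tissue was whole muscle, so that a lower level can come from fewer cells of a type or from less RNA per cell, and these cannot be told apart. The alleles of the parental strains are not separated in the tables.

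Actin is a globular protein that assembles into filaments, and in striated muscle these are the thin filaments along which myosin pulls. Acta1 encodes the skeletal muscle alpha-actin of adult fibres and Actc1 the cardiac alpha-actin, which is also made in skeletal muscle before birth and during regeneration. Acta2 and Actg2 encode the actins of vascular and of visceral smooth muscle. Actb and Actg1 encode the cytoplasmic actins that build the cytoskeleton of almost every cell.

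All 6 genes lie on the minus strand, each on a chromosome of its own (build mm10). Acta1 lies at chr8:123891769-123894751, Actc1 at chr2:114047282-114053548, Acta2 at chr19:34241090-34255590, Actg2 at chr6:83512905-83536265, Actb at chr5:142903115-142906754 and Actg1 at chr11:120345690-120348542. Their exon structure fell into 3 pairs. Acta1 and Actc1 had 6 coding exons of identical lengths, and their second coding exon of 325 bases was the sum of 3 exons of Acta2 and Actg2, of 129, 111 and 85 bases. The smooth muscle genes had 8 coding exons each. Actb and Actg1 had 5, and their exon of 439 bases spanned what is split in Acta2 and Actg2 into exons of 85, 162 and 192 bases. The last 2 coding exons, of 182 and 141 bases, had the same lengths in all 6 genes.

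**Figure D1:**
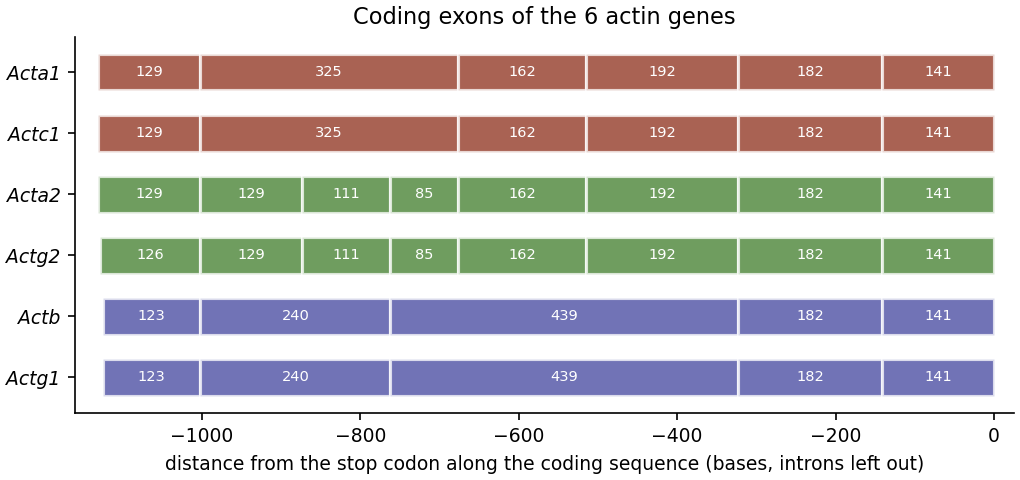
Coding exons of the 6 actin genes, drawn to scale by distance in bases from the stop codon, with introns and the stop codon left out and each box labelled with its length in bases. Colours mark the pairs of striated (top), smooth muscle (middle) and cytoplasmic (bottom) genes, and exon boundaries are shared within each pair.

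The proteins translated from these transcripts differed little. Members of the same pair differed at 4 residues (Acta1 and Actc1, Actb and Actg1) or 5 residues (Acta2 and Actg2). Striated and smooth muscle actins differed at 6 to 8 residues over their 4 pairings. Muscle and cytoplasmic actins differed at 22 to 25 residues over 8 pairings, out of 375 that could be aligned. Sequences were aligned from the stop codon without gaps. Where lengths differed, the start codon of the shorter member was therefore counted among the differences, in residues and in bases. The messages were less alike than the proteins. Acta1 and Actc1 differed at 157 of 1134 coding bases, Acta2 and Actg2 at 183 of 1131, and Actb and Actg1 at 128 of 1128. The 60 coding bases with the most differences from Acta1, summed over the other members, lay at or near the start codon. They are shown for all 6 genes because they show where the other members differ most from Acta1. Capitals mark the bases that differ from Acta1, and coordinates are mm10, minus strand.

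Acta1, chr8:123893632-123893691: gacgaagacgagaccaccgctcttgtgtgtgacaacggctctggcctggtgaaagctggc
Actc1, chr2:114051966-114052025: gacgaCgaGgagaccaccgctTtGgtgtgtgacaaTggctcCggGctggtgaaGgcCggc
Acta2, chr19:34252488-34252547: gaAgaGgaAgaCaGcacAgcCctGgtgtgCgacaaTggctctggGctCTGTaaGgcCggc
Actg2, chr6:83527379-83527438: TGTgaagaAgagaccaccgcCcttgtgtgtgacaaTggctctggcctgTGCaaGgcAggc
Actb, chr5:142905627-142905686: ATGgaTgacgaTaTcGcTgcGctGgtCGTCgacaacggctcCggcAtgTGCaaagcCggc
Actg1, chr11:120348032-120348091: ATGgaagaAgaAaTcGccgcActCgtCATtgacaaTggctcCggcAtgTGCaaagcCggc

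Over this stretch Actc1 differed from Acta1 at 9 bases, Acta2 at 17, Actg2 at 11, Actb at 20 and Actg1 at 19. These changed 2, 5, 3, 8 and 7 of the encoded residues. The stretch covers coding bases 7 to 66 of Acta1, Actc1 and Acta2, 4 to 63 of Actg2 and 1 to 60 of Actb and Actg1. The counts of Actb and Actg1 therefore include their start codon (the first ATG), set against a later codon of Acta1. In Actg2 the second codon is set against the third of Acta1. The longest run of identical coding bases shared by any 2 members was 77 bases, between Acta1 and Actb. No window of 100 bases, the read length that the length columns of the tables give, was shared between any 2 of the 6 genes. A read that matched the reference transcripts exactly could therefore be told apart between members.

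Serum response factor, a transcription factor of muscle and of growth factor responses, binds the CArG box, and actin genes are textbook targets of it. RefSeq promoter sequences (GRCm38.p6, 250 bases before to 50 after the start) were at hand for 4 members, Acta1, Actc1, Actg1 and Acta2. A search of both strands for the CArG box found it in 3 of the 4, against 1.63% of 32851 promoters. The window around it is shown with the box in capitals.

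Acta1, chr8:123894814-123894873: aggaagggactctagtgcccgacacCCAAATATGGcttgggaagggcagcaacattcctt
Actc1, chr2:114052888-114052947: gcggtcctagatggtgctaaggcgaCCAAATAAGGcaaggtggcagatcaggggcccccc
Actg1, chr11:120348551-120348610: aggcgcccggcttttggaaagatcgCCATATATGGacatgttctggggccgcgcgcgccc

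The box ended 63 bases before the start in Acta1, 37 in Actc1 and 80 in Actg1. The letters TATAAA, searched on both strands, were present in the promoters of Acta1 and Actc1 and in 13.6% of all promoters. No CArG box was found in the window of Acta2, which says only that these letters are not in it.

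The striated pair held nearly all actin message. Acta1 had 22669 TPM (a level scaled by transcript length and library size) in replicate 1 and 25019 TPM in replicate 2, or 23844 ± 1662 TPM (SD, n = 2). It stood first among nuclear protein-coding genes in both libraries. Acta1 took 959471 expected counts in replicate 1, 2.60% of the library (Wilson 95% interval 2.59 to 2.60), and 1063011 in replicate 2, or 2.74% (2.74 to 2.75). These intervals cover counting error only.

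Actc1 had 891 TPM in replicate 1 and 1767 TPM in replicate 2, or 1329 ± 619 TPM. Replicate 2 was thus nearly 2-fold above replicate 1, by a factor of 1.98, the widest gap among the 5 members that reached a mean of 1 TPM. The counts behind these levels were large, 38658 in replicate 1 and 76897 in replicate 2, so that counting error was small beside the gap. Actc1 ranked 34 among nuclear protein-coding genes in replicate 1 and 22 in replicate 2. It lay far below Acta1, by a factor of 25.4 in replicate 1 and 14.2 in replicate 2.

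The cytoplasmic pair came next. Actb, often used as a reference gene, had 261 TPM in replicate 1 and 178 TPM in replicate 2, or 219.6 ± 58.4 TPM. Actg1 had 127 TPM in replicate 1 and 89.8 TPM in replicate 2, or 108 ± 26.4 TPM. Both were higher in replicate 1, by factors of 1.46 and 1.42. Their proportion hardly moved: Actb exceeded Actg1 by a factor of 2.05 in replicate 1 and 1.99 in replicate 2. Measured against Actb, in contrast, the striated members shifted, with Acta1 over Actb at 86.9 in replicate 1 and 140 in replicate 2. Actc1 over Actb was 3.42 in replicate 1 and 9.91 in replicate 2.

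Of the smooth muscle pair, Acta2 had 31.9 TPM in replicate 1 and 20.0 TPM in replicate 2, or 26.0 ± 8.44 TPM, from 1544 and 1017 counts. Like the cytoplasmic members it was higher in replicate 1, and the ratio of Actb to Acta2 was 8.17 in replicate 1 and 8.92 in replicate 2. Actg2 was barely detected, with 0.43 TPM in replicate 1 and 0.16 TPM in replicate 2. These rested on 16 reads and 6 reads, or 0.433 and 0.155 CPM (counts scaled to library size). A count of 0 would have allowed up to 3 reads, or 0.0812 and 0.0774 CPM, so Actg2 lay above that limit in both. The ratio of the 2 read rates was 2.80 with an exact 95% interval of 1.04 to 8.73 for counting error alone.

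Ordered by level, the genes ran Acta1, Actc1, Actb, Actg1, Acta2 and Actg2 in both libraries. For all 5 neighbouring pairs in this order the values of the upper gene did not overlap those of the lower one. The same order, again without overlap, was found in the second transcript table, a separate quantification of the same libraries. There Acta1 had 49947 TPM in replicate 1 and 52615 TPM in replicate 2. Actc1 had 1352 and 2480 TPM there. Its Actb levels were 467 and 274 TPM in replicates 1 and 2, its Actg1 levels 205 and 135 TPM, and its Acta2 levels 64.0 and 38.0 TPM. The reads given to Acta1 were close to those of the gene table, 978604 and 1070044, so its higher TPM there came with almost the same number of reads. Actg2 had 1.71 TPM in replicate 1 and 1.61 TPM in replicate 2 in that table, from 32.0 and 33.0 reads, and so had no gap between the libraries.

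**Figure D2:**
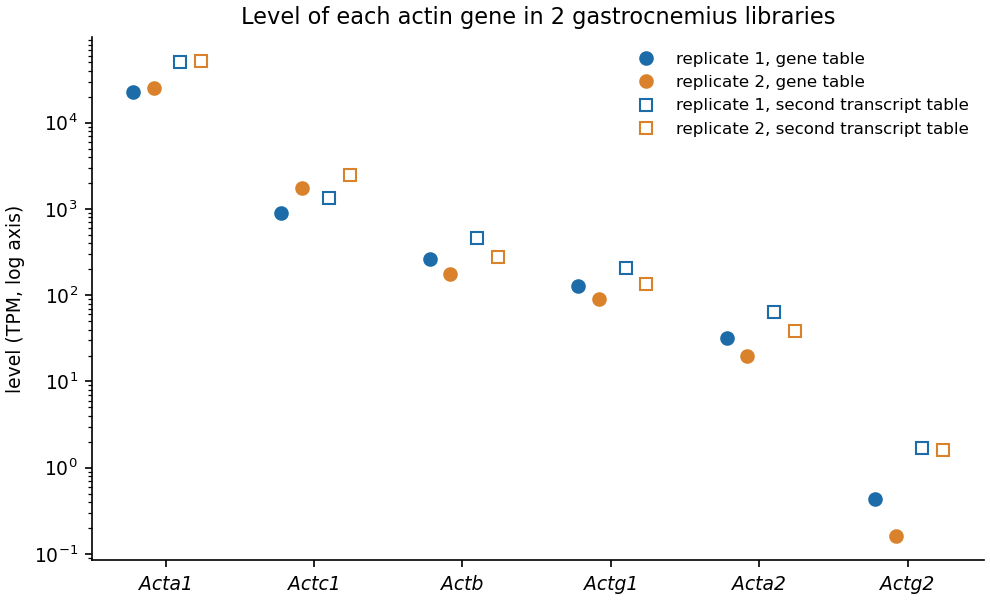
Level of each actin gene in TPM on a log axis, with 1 point per library (blue, replicate 1; orange, replicate 2), in the gene table (filled circles) and the second transcript table (open squares). The genes step down from Acta1 (22669 and 25019 TPM in the gene table) to Actg2 (0.43 and 0.16 TPM), and no gene's points overlap those of its neighbour within a table.

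The summed level of the 6 genes came to 23980 TPM in replicate 1 and 27073.5 TPM in replicate 2, or 25527 ± 2187 TPM. Acta1 made up 94.5% of the sum in replicate 1 and 92.4% in replicate 2. Actc1 made up 3.72% in replicate 1 and 6.53% in replicate 2, so its larger share in replicate 2 stood against a smaller share of Acta1. Together the striated pair held 98.2% in replicate 1 and 98.9% in replicate 2, or 98.6% ± 0.487. The cytoplasmic pair held 1.62% in replicate 1 and 0.990% in replicate 2, from summed levels of 388 and 268 TPM. The smooth muscle pair held 0.135% in replicate 1 and 0.0745% in replicate 2. Striated actin thus weighed slightly more in replicate 2 and both other pairs more in replicate 1. These shifts between 2 libraries cannot be tested.

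Of the 30 annotated transcripts of the 6 genes, 18 had reads in both libraries in the first transcript table and 21 in the second. Acta1 had a full-length form, Acta1-201, and a short form of 616 bases, Acta1-202, with an added noncoding exon of 90 bases at chr8:123894422-123894511. In the first table Acta1-201 carried 99.2% of the gene's TPM in replicate 1 and 99.3% in replicate 2. In the second table it carried 58.5% in replicate 1 and 56.3% in replicate 2, and Acta1-202 held the remainder. The tables therefore disagreed on this form far beyond the spread between the libraries. Acta1-202 was given 2903 and 2994 reads in the first table, against 149218 and 174150 in the second. Only 149 of the 517 windows of 100 bases in Acta1-202 are absent from Acta1-201, so most of its reads could be placed on either form. The second table also gave Acta1-202 an effective length of 282 and 277 bases, where the first had 517, and a shorter effective length raises TPM per read.

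Actc1 was carried by Actc1-201 alone to within 0.0828% in both libraries and both tables. Acta2 had 2 forms. The longer, Acta2-201, carried 66.5% in replicate 1 and 72.6% in replicate 2 in the first table, but 48.9% and 51.8% in the second. The few Actg2 reads were all placed on Actg2-202 in the first table and on Actg2-201 and Actg2-205 in the second, so its form was not determined.

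The cytoplasmic genes had the most forms, 9 each. Full-length Actb-201 carried 74.1% of Actb in replicate 1 and 67.7% in replicate 2 in the first table, and 57.8% and 58.4% in the second. Actb-206, annotated as a processed transcript with no coding sequence, carried 20.2% in replicate 1 and 26.6% in replicate 2, and 8.34% and 12.6% in the second table. Actb-208 made up most of the difference between tables, with 2.14% and 1.57% in the first against 23.7% and 25.8% in the second. Actb-202 was listed at 0 in the first table in both libraries, and had 8.00% in replicate 1 but 0.0714% in replicate 2 in the second.

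For Actg1 the full-length Actg1-202 carried 77.2% in replicate 1 and 71.0% in replicate 2 in the first table, and 64.2% and 54.6% in the second. Actg1-206 is annotated as a target of nonsense-mediated decay, the pathway that destroys messages with an early stop codon. It carried 9.20% in replicate 1 and 14.6% in replicate 2, and nearly the same in the second table, 8.97% and 14.7%. Retained-intron forms made up another 12.2% in replicate 1 and 13.2% in replicate 2. The inclusion in mouse muscle of an Actg1 exon that carries an in-frame stop is known and has been linked to the fall of gamma-actin as muscle cells mature. Both forms with an early stop carry an added exon that the full-length form lacks. As annotated, both are also shorter. Actg1-206 has 1189 bases against 1952 in Actg1-202, and Actb-206 has 894 against 1920 in Actb-201. The added exons are printed (mm10, minus strand) with the first in-frame stop codon in capitals.

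Actg1-206 exon, chr11:120347492-120347536: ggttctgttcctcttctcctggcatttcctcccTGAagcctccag
Actb-206 exon, chr5:142905088-142905150: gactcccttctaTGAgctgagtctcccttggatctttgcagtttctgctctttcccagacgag

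Read from the start codon of the full-length form, the added exon of 45 bases in Actg1-206 closed the frame after 132 codons. That of 63 bases in Actb-206 closed it after 125 codons, against 375 residues in both full-length proteins. As a share of the pair with its full-length form, Actg1-206 was 10.6% in replicate 1 and 17.1% in replicate 2 in the first table, and 12.3% and 21.2% in the second. Actb-206 was 21.5% in replicate 1 and 28.2% in replicate 2 of its pair in the first table, and 12.6% and 17.7% in the second. Both shares were higher in replicate 2, in both tables. In TPM of the first table, Actg1-206 was given 11.7 in replicate 1 and 13.1 in replicate 2. Actg1-202 was given 98.2 and 63.7, so the wider gap lay in the full-length form. Actb-206 was 52.8 and 47.4 TPM, against 193 and 121 TPM for Actb-201, likewise with the wider gap in the full-length form.

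**Figure D3:**
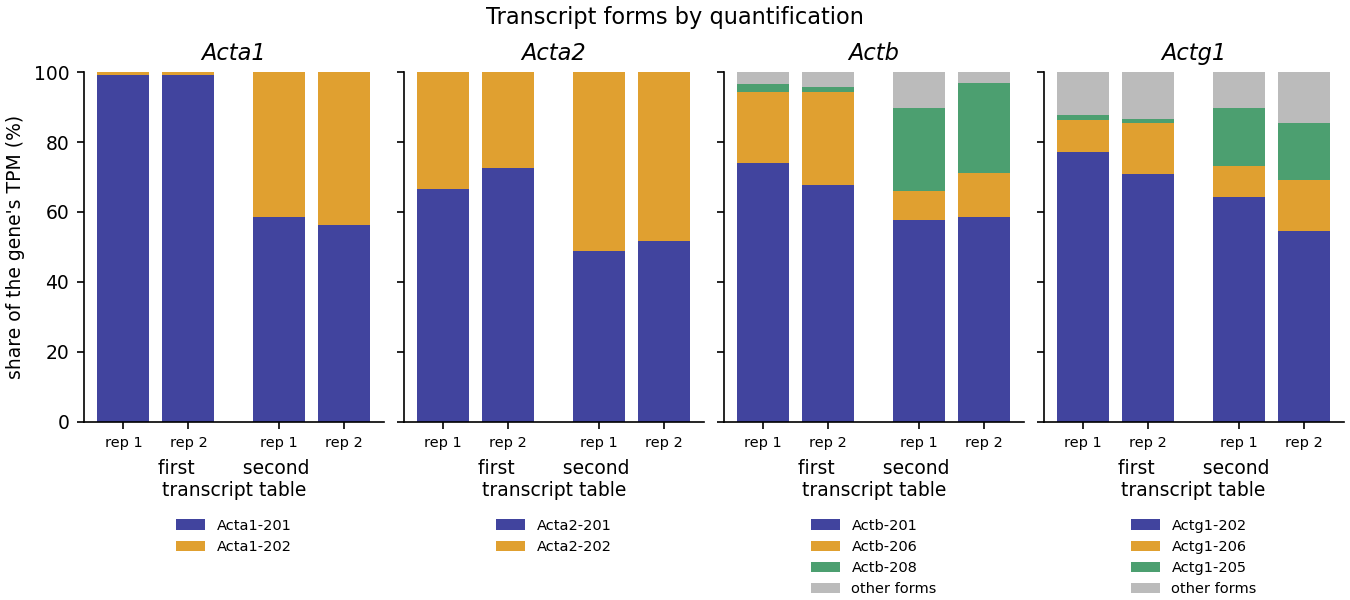
Share of each gene's TPM in percent carried by each transcript form, for Acta1, Acta2, Actb and Actg1, in replicate 1 and replicate 2 of the first (left pair of bars) and second (right pair) transcript tables. The share of Acta1-202 was under 1% in the first table and 41.5% and 43.7% in the second, whereas that of Actg1-206 was alike in both tables.

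Sequence shared with genes outside the family touched mainly Actg1. None of the 100-base windows in any listed transcript of Acta1, Actc1, Acta2 or Actg2 occurred in another gene's transcripts. Of the windows of Actb-201, 20 of 1821 occurred both in a pseudogene, Gm15725, and in the protein-coding gene Lrrc58, within which it lies on chromosome 16. Lrrc58 was given 5678 reads in replicate 1 and 5043 in replicate 2. For Actg1-202, 946 of 1853 windows (51.1%) occurred in at least 1 of 6 pseudogenes, all of them coding windows, while none of its 601 windows within the 3′ untranslated region did. Gm12715 shared the most, 823 windows, and Gm8399 followed with 327. Yet Gm8399 was given the most reads, 379 in replicate 1 and 280.4 in replicate 2. In all the 6 copies took 429 reads in replicate 1 and 304 in replicate 2, or 6.17% and 6.37% of the reads given to Actg1 and its copies. In the second table their share was 3.62% in replicate 1 and 3.80% in replicate 2. How far this assignment could be off was not tested.

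Some actin genes also overlap other genes. Acta1 lies within Gm20388 and Actc1 within A530058N18Rik, both on the opposite strand. The labels name a spike-in profile for stranded libraries, but no source used here says whether counting made use of strand. On its own strand Actg1 overlaps the microRNA genes Gm23419 and Mir6935.

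Between the libraries the members went in both directions. On the scale of log2(TPM + 0.1), replicate 1 over replicate 2, Actc1 stood at -0.99 and Acta1 at -0.14. Actg1 stood at 0.50, Actb at 0.55 and Acta2 at 0.67. Of these 5 members with a mean of at least 1 TPM, 0 lay past 2-fold. Over all 11349 genes at that level 3.37% did, 2.45% higher in replicate 1 and 0.916% higher in replicate 2, with a median log2 ratio of -0.01. The central 90% of these genes ran from -0.50 to 0.72, which holds 4 of the 5 members. Actc1 lay outside, and 0.952% of the genes had a lower ratio. Acta2 lay near the upper edge, with 94.3% of the genes below it. In the second transcript table the ratios were -0.87 for Actc1, -0.08 for Acta1, 0.60 for Actg1, 0.77 for Actb and 0.75 for Acta2. With 1 library on each side, none of these ratios has a replicate check.

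Marker genes of several cell and fibre types moved with these ratios, and their part in the ratios of the actins was not tested. For comparison with the counts by direction below, 5465 of all 11349 genes were higher in replicate 1 and 5819 in replicate 2. Beside Actc1, all 9 slow fibre genes were higher in replicate 2, with a median log2 ratio of -1.00 and 5 past 2-fold. The slow fibre genes summed to 377 TPM in replicate 1 and 655 TPM in replicate 2. The slow myosin Myh7 had 38.3 TPM in replicate 1 and 78.5 TPM in replicate 2. Of the 7 heart markers Myh6 had 8.19 TPM in replicate 1 and 16.4 TPM in replicate 2. Tnnt2 had 2.18 and 2.19 TPM. Of the same list, Myl7, Nppa and Nppb were at 0 in both libraries. Tnni3 had 0.16 and 0.18 TPM and Ryr2 had 0.04 and 0.05 TPM. Among 6 developing fibre markers at 1 TPM or more, 5 were higher in replicate 1, with Myog, a regulator of muscle differentiation, at 17.2 TPM in replicate 1 and 8.46 TPM in replicate 2. Myh8, the perinatal myosin and the highest of these, went the other way, with 102 TPM in replicate 1 and 124 TPM in replicate 2. Most developing fibre markers thus went opposite to Actc1, while Myh8 went with it. Beside Acta1, the 10 fast fibre genes had a median of 0.01, and they summed to 93081 TPM in replicate 1 and 93097 TPM in replicate 2. These genes define fast skeletal muscle, the labelled tissue, and were at high level in both libraries. The level of Acta1 in replicate 2, higher by a factor of 1.10, had no counterpart in that sum. Single members differed: 7 of the 10 were higher in replicate 1 and 3 in replicate 2. Among the 3 was Myh4, with 10598 TPM in replicate 1 and 11754 TPM in replicate 2 (log2 ratio -0.15).

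Beside Actb and Actg1, all 7 fibroblast markers were higher in replicate 1 (median 0.44, sums of 1764 and 921 TPM), as were all 5 tendon cell markers (1.07, 89.6 and 48.6 TPM). The same held for all 6 macrophage markers (0.41, 47.6 and 35.4 TPM) and all 5 Schwann cell markers with a mean of at least 1 TPM (2.11, with 368 and 80.5 TPM over the whole list of 6). Of 5 adipocyte markers, the 4 with a mean of at least 1 TPM were all higher in replicate 2 (-0.81, with 27.9 and 48.7 TPM over the whole list). Lep, the remaining one, had 0.45 TPM in replicate 1 and 0.16 TPM in replicate 2. The 6 endothelial markers went both ways, 3 higher in replicate 1 and 3 in replicate 2. Their ratios ran from -0.90 to 0.54 (median -0.03, 48.3 and 50.6 TPM). Satellite cell markers summed to 7.55 TPM in replicate 1 and 8.15 TPM in replicate 2. Beside Acta2, the 11 smooth muscle and pericyte markers had a median of 0.02, with 6 higher in replicate 1 and 5 in replicate 2. The whole list of 12 summed to 199 TPM in replicate 1 and 176 TPM in replicate 2. Tagln, an actin-binding protein of smooth muscle, had 24.9 TPM in replicate 1 and 13.0 TPM in replicate 2 (log2 ratio 0.93). Myh11, the smooth muscle myosin, had 6.67 TPM in replicate 1 and 7.13 TPM in replicate 2. Its log2 ratio was -0.09, and 0.05 in the second transcript table. Tagln had the highest ratio of the 11, and the next was Rgs5 at 0.20. Acta2 (0.67) thus lay above every marker of the list but Tagln.

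**Figure D4:**
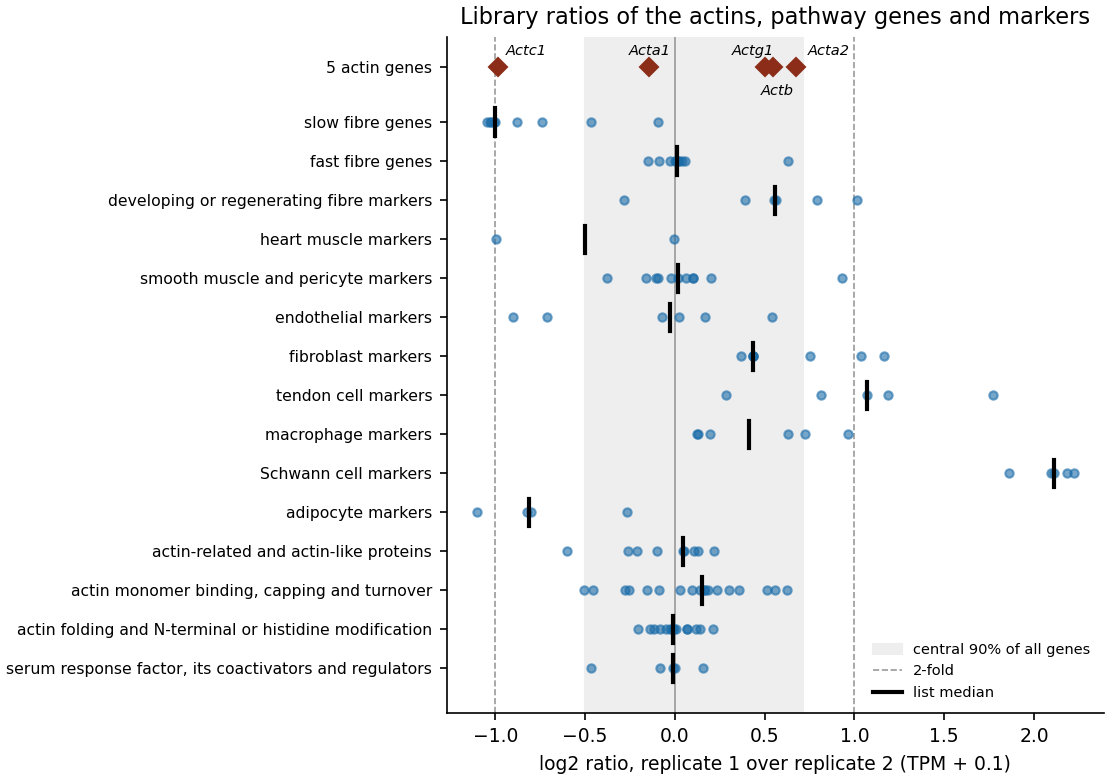
Log2 ratio of replicate 1 over replicate 2 on the scale of TPM + 0.1, with 5 actin genes as diamonds. Points are members with a mean of at least 1 TPM of each marker and pathway list, other than the satellite cell markers. List medians are black bars, the central 90% of all genes is shaded and 2-fold is dashed. Actc1 (-0.99) lies at the median of the slow fibre genes (-1.00), and the other 4 actins lie inside the shaded range.

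Of the listed genes that act on actin protein, 0 lay past 2-fold between the libraries, which for lists of this size is near the 3.37% of all genes. Of 15 genes of folding and modification, 6 were higher in replicate 1 and 9 in replicate 2, with log2 ratios from -0.21 to 0.21. Together they had 576 TPM in replicate 1 and 566.5 TPM in replicate 2. Tcp1, a subunit of the chaperonin that folds actin, had 65.8 TPM in replicate 1 and 60.6 TPM in replicate 2. The prefoldin subunits, which hand newly made actin to it, were led by Pfdn5 (80.2 and 76.7 TPM) and Pfdn1 (54.3 and 57.5 TPM). Naa80, the enzyme that acetylates the start of mature actin, was lowest at 3.90 TPM in replicate 1 and 4.52 TPM in replicate 2.

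Of 18 genes of monomer binding, capping and turnover, 12 were higher in replicate 1 and 6 in replicate 2, with a median of 0.15 and 0 past 2-fold. Together they had 1273 TPM in replicate 1 and 1266 TPM in replicate 2. The highest were Capzb, a subunit of the protein that caps filament ends (202 and 224 TPM), Cfl2, the muscle cofilin that severs filaments (178 and 162 TPM), and gelsolin, Gsn (179 and 161 TPM). Coro1a was the lowest (1.15 and 1.07 TPM). For scale, Actb and Actg1 together had 388 TPM in replicate 1 and 268 TPM in replicate 2, less than the summed level of this list and far less than Acta1.

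Of the serum response factor genes, Srf itself had 30.1 TPM in replicate 1 and 30.4 TPM in replicate 2. Abra, a striated muscle activator of this axis, had 124 TPM in replicate 1 and 111 TPM in replicate 2. The coactivator Mrtfb had 7.62 TPM in replicate 1 and 8.08 TPM in replicate 2. Myocd, the coactivator of heart and smooth muscle, was lowest at 0.31 and 0.48 TPM. Of 5 such genes at 1 TPM or more, 1 was higher in replicate 1 and 4 in replicate 2, with a median of -0.01 and 0 past 2-fold. A CArG box was found in 3 of the 4 members whose promoters were searched, and Actb and Actg2 were not searched. These 3, Acta1, Actc1 and Actg1, had ratios of -0.14, -0.99 and 0.50, while that of Srf was -0.01. A link between them was not tested.

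The relatives of actin lay far below Acta1 and Actc1, and the highest of them lay above Acta2 and Actg2. Of 19 actin-related and actin-like genes found, 9 reached a mean of 1 TPM, with 5 higher in replicate 1, 4 in replicate 2 and 0 past 2-fold. Actr1b and Actr1a, which form the short filament of the dynein partner dynactin, had 51.3 and 20.7 TPM in replicate 1 and 47.6 and 20.0 TPM in replicate 2. Another dynactin subunit, Actr10, had 36.9 TPM in replicate 1 and 35.7 TPM in replicate 2. Actrt2 was listed at 0. Actbl2, a further actin-like gene, was listed at 0 in both libraries.

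Within the 119 listed genes that reached a mean of 1 TPM, the 2 with the nearest log2 ratio to each actin were looked up as a description over 2 libraries. Actc1 (-0.99) was nearest to Myh6 (-0.99) and the slow troponin Tnni1 (-1.00). In the second transcript table Actc1 stood at -0.87, Myh6 at -0.56 and Tnni1 at -0.98, so the closeness to Myh6 was not seen there. Acta1 (-0.14) was nearest to Pfdn4 (-0.14) and the fast myosin Myh4 (-0.15). Actb (0.55) was nearest to Myl4 (0.55) and Emcn (0.54), and Actg1 (0.50) to Twf1 (0.51) and Emcn. Acta2 (0.67) was nearest to Myh1 and Mrc1 (both 0.63), and Actg2 (1.03 from 16 and 6 reads) to Myog (1.02) and Col1a2 (1.04). In the second transcript table Acta2, Myh1 and Mrc1 all stood at 0.75. Acta1 stood at -0.08 there, Pfdn4 at -0.29 and Myh4 at -0.03. Actb stood at 0.77 and Myl4 at 0.71, and Actg1 at 0.60 and Twf1 at 0.49, but Emcn at 0.27. Actg2 stood at 0.085, far from Myog (1.12) and Col1a2 (1.17). Many genes share any given ratio between 2 libraries, and the nearest pair came from different lists for all 6 members.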

How the data were processed

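Per the labels, total RNA was taken with a column kit, and the spike-in profile named is for stranded libraries reduced in ribosomal RNA. Per the deposited notes, values were made on build mm10 with GENCODE annotation M21: the gene table and first transcript table from alignments to the transcriptome, the second transcript table from the reads and an index. No source used here names the quantifiers. The authors deposited expected counts (estimated reads that need not be whole) and TPM per gene and transcript. Posterior means and interval bounds of TPM were deposited too. The deposited percent of each gene per transcript was recomputed here from TPM.

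From these, shares of the summed actin TPM, Wilson 95% intervals, and log2(TPM + 0.1) ratios of replicate 1 over replicate 2 were computed (Python 3.11.15, pandas 2.3.3, scipy 1.17.1). Such ratios understate differences of low genes. A mean of at least 1 TPM was required and 2-fold counted as past the limit. Scaling by TMM (edgeR 4.0.16) was an alternative. The ratio step was run on simulated counts with planted changes, scaled to library size and not to TPM. The simulation held counting error only, so it checked the calculation and cannot speak to the spread between animals. The full-length form of a gene is its longest protein-coding transcript. Sequences came from GENCODE M21 transcripts, and proteins were translated with biopython 1.88 and aligned from the stop codon. Promoters came from RefSeq. The members and the 16 gene lists, of which 144 of 145 genes were found, were chosen with earlier results of these data known. Named genes were the 3 highest and the lowest of each list, those past 2-fold, and those nearest in ratio, with a few taken after their values were seen (Tagln, Myh11, Ryr2, Myl7, Nppa, Actbl2 and Lrrc58).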

Additional observations from a re-analysis of the deposited data

How the results depend on the processing

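The order of the 6 levels held in both quantifications, but the levels themselves differed between settings. In the second transcript table the means were 51281 TPM for Acta1, 370.4 for Actb, 170.3 for Actg1, 51.0 for Acta2 and 1.66 for Actg2. Rescaled over nuclear protein-coding genes they were 57796 TPM for Acta1, 3199 for Actc1, 535 for Actb, 264 for Actg1, 63.4 for Acta2 and 0.724 for Actg2. The posterior mean of Actg2 was 0.595 TPM. In the second table Acta1 made up 95.4% and Actg2 0.0031% of the summed actin TPM. The log2 ratio of Actg2 was 1.03, but 0.30 with a pseudocount of 1 and 0.085 in the second table, where it no longer passed 2-fold. Over all genes 382 lay past 2-fold, against 2056 of 23643 with no filter beyond a value above 0 and 64 of 4201 at a mean of at least 10 TPM. The causes of these shifts were not tested. The ratios of the other 5 members kept their direction and stayed within 2-fold under TMM, the median of ratios, rescaling, no pseudocount, a pseudocount of 1 and the second table. Rescaling moved the median log2 ratio of all genes to 0.06 and the second table to 0.10. With 2 libraries, leaving out either one gives the value of the other, so these settings say nothing about stability. The deposited TPM lay outside its deposited interval for Acta1 and Actc1 in both libraries and for Actg2 in replicate 2 (22150 to 22246 for Acta1 in replicate 1). No paired analysis was possible because there is 1 group.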
